A study of Homo sapiens with 24 samples.

Results

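Nucleoporins are the proteins that build the nuclear pore complex. The 31 genes described here are a list of nucleoporin genes taken by symbol from the deposited table, out of 28907 symbols in all, with the TPM of each symbol summed over its distinct transcript IDs. All 31 were in the table. TPM is a transcript level scaled for transcript length and library total, so members can be compared with each other within a library. By place in the pore the list holds 9 genes of the outer ring (NUP107, NUP133, NUP160, NUP85, NUP43, NUP37, SEC13, SEH1L and AHCTF1), 5 of the inner ring (NUP205, NUP188, NUP155, NUP93 and NUP35), 3 of the central channel (NUP62, NUP58 and NUP54), 4 of the membrane anchor (NDC1, NUP210, POM121 and AAAS), 5 of the cytoplasmic filaments (NUP214, NUP88, RANBP2, NUP42 and GLE1), 3 of the nuclear basket (NUP153, NUP50 and TPR) and 2 mobile partners of mRNA export (NUP98 and RAE1).

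The nuclear pore complex spans the nuclear envelope and carries all receptor-mediated traffic between nucleus and cytoplasm. Outer and inner rings form its scaffold, transmembrane nucleoporins hold it in the membrane, and nucleoporins with phenylalanine-glycine (FG) repeats fill the channel, where they bind the transport receptors. In dividing cells the pores disassemble at mitosis and are rebuilt around the daughter chromosomes, a step seeded on chromatin by the outer ring with AHCTF1 (also called ELYS).

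RNA-seq was done on total RNA of 2 established ovarian cancer cell lines, ES2 and A2780, both labelled wild type. Each line was given an siRNA to VRK1 (siVRK1) or a control siRNA (siCtrl), and the flavonoid luteolin or DMSO, its solvent control, in 4 separate groups. VRK1, a kinase of the nucleus, is known to phosphorylate histones and BANF1, which joins chromatin to the nuclear envelope. With 3 libraries in each of the 8 groups there were 24 libraries; the labels state no dose or duration and no siRNA sequence. Separate cultures are not stated for the 3 libraries of a group, and p-values therefore measure only the spread between these libraries, which may be technical. Among the ES2 siVRK1 columns a pair carried the same name, and their values are given as libraries a and b, followed by library 3.

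Promoters of 28 of the 31 members were found in the RefSeq table (assembly GRCh38.p14, 250 bases before to 50 after the start), and those of 4 members are printed here. NUP35, NUP58 and POM121 are shown because each moved in the same direction in both lines with siVRK1, and NUP210 because it was the member that separated the lines furthest. Capitals mark searched words on either strand, here CCGGAAGT (the ETS word), CCAAT (NFY) and TTTGAA (CHR, a cell-cycle element); a word on the opposite strand appears as its reverse complement. The promoter of NUP210 held none of the 7 words searched. The windows are chr2:183124193-183124492 (plus strand), chr13:25301375-25301674 (plus strand), chr7:72879107-72879406 (plus strand) and chr3:13420273-13420572 (minus strand), each written in the direction of transcription.
NUP35: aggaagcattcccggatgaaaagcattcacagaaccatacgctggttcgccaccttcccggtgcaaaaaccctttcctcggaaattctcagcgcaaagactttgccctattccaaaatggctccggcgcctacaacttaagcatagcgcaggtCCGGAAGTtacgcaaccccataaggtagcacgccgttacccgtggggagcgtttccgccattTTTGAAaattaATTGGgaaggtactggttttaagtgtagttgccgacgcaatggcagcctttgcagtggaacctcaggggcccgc
NUP58: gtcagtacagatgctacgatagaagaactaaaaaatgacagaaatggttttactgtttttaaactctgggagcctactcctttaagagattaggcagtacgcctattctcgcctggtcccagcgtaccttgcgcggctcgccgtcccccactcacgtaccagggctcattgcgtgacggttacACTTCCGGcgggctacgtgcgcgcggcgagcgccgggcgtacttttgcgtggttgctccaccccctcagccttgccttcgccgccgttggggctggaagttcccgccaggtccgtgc
POM121: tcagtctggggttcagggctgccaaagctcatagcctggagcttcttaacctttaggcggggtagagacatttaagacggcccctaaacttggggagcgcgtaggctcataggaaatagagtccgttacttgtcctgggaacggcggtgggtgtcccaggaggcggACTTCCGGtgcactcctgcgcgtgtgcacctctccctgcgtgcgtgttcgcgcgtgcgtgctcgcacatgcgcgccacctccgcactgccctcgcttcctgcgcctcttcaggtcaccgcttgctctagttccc
NUP210: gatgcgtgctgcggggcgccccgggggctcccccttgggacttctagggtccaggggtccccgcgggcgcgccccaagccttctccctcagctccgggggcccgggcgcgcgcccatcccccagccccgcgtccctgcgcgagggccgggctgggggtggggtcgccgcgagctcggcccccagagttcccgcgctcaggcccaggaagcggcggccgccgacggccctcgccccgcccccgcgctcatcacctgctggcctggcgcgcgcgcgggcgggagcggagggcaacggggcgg

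CCGGAAGT was found in 6 of the 28 promoters (21.4%), those of NUP160, SEC13, NUP35, NUP58, NUP54 and POM121, and in 4.44% of all 27305 promoters of the table and 8.53% of those of 10802 tested genes. It was carried alike by members that fell with siVRK1 (NUP35, NUP58 and NUP160 in both lines) and by POM121, which rose in both. CCAAT was held by 11 member promoters (39.3%), against 36.7% of tested genes, and TTTGAA by 6 (21.4%), against 9.83%. The NRF1 word GCATGCGC was found in 3 promoters (10.7% against 5.46%), the E-box CACGTG in 2 (7.14% against 10.03%), and the E2F words TTTGGCGC and TTTCCCGC in 1 and 0 (3.57% and 0% against 1.07% and 2.53%). The promoter of NUP210 was 81.3% G or C, the highest among the members, whose median was 63.5% beside 65.0% over tested genes. A match is only a match of letters within this window.

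The deposited values are TPM, which keeps no sequencing depth, so the depth is unknown and no counting interval can be given. Libraries held 11792 to 12862 genes at 1 TPM or more. The siRNA target VRK1 averaged 3.73 ± 0.703 TPM in ES2 siVRK1 against 64.6 ± 2.17 TPM in ES2 siCtrl, and 9.57 ± 1.68 TPM in A2780 siVRK1 against 54.4 ± 0.788 TPM in A2780 siCtrl (SD, n = 3 each). The 6 epithelial and ovarian carcinoma markers summed to 636 to 992 TPM in ES2 libraries and 5.42 to 12.1 TPM in A2780 libraries, in which PAX8 and KRT7 were at or near 0, while VIM stood at 3021 to 3891 TPM in ES2 and 2487 to 4007 TPM in A2780. The 4 leukocyte markers summed to at most 1.98 TPM in any library, with CD3E at 0, and the 2 erythroid markers to 0 in ES2 and 0.556 to 4.90 TPM in A2780, with HBB at 0. The 3 endothelial markers reached 39.8 TPM in ES2 and 1.58 TPM in A2780 as a sum, the 3 fibroblast markers 132.6 TPM and 21.0 TPM. Taken singly, 1 of the 3 fibroblast markers was called higher and 2 lower in the ES2 controls than in the A2780 controls. These calls come from the test between the lines given below.

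In the control libraries the median nucleoporin stood at 45.7 to 45.9 TPM in ES2 groups and 47.2 to 64.7 TPM in A2780 groups, and single members differed between the lines in both directions. Averaged over siCtrl and DMSO, and tested with limma on log2(TPM + 1) over 14328 genes, 11 members were higher and 16 lower in ES2 than in A2780. Among all tested genes 34.3% were called higher and 49.4% lower in ES2 (adjusted p under 0.05), a split close to the members' own. The median gene lay at -0.17 (log2), a shift that scaling by median of ratios moved to -0.033, and differences between the lines are therefore given relative to that median; with the scaling 14 members were higher and 14 lower (backgrounds 40.1% and 43.5%). Cytoplasmic filament genes were higher in ES2 for 4 of 5 members, and all 3 central channel genes were lower in ES2, with the scaling too. With coding transcripts only, NUP88, among the filament genes higher in ES2, was instead called lower there (-0.18 as fitted, adjusted p = 0.0247).

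NUP210 stood apart. NUP210 (ENSG00000132182, chr3:13316235-13420309, GRCh38, minus strand) encodes gp210, a transmembrane nucleoporin found in some cell types and not in others. It lay between 0 and 0.147 TPM over the 12 ES2 libraries (median 0.0467) and between 40.0 and 53.4 TPM over the 12 A2780 libraries (median 46.8). The ranges are far apart in every group, and the main coding transcript, ENST00000254508, was listed at 0 in every ES2 group and at 49.7 ± 1.61 TPM in A2780 siCtrl (SD, n = 3). The fitted difference relative to the median gene was -5.40 ± 0.059 (SE), a size that the pseudocount of 1 limits, and the gene passed the filter on low values only through A2780. Its relative NUP210L (55.9% identical over the aligned coding bases) stayed under 0.1 TPM on average in every group. In ES2 it was too low to test.

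GLE1, the mRNA export factor that activates the helicase DDX19B at the pore, was the member furthest above A2780. It had 44.9, 45.6 and 47.1 TPM in ES2 siCtrl and 43.00, 43.3 and 46.5 TPM in ES2 DMSO, against 24.5, 24.3 and 25.7 TPM in A2780 siCtrl and 19.4, 19.3 and 21.4 TPM in A2780 DMSO. No ES2 control library overlapped an A2780 one, and the difference relative to the median gene was 1.15 ± 0.039 (SE, adjusted p = 1.28e-15). NUP37 (1.03 ± 0.039) and NUP42 (0.94 ± 0.075), which docks GLE1 on the cytoplasmic face, were also higher in ES2 without overlap. On the low side followed POM121 (-0.89 ± 0.033), a transmembrane nucleoporin, NUP160 (-0.89 ± 0.051), a scaffold subunit of the outer ring, and NUP62 (-0.79 ± 0.039), the FG nucleoporin of the channel. Over all 31 members the control libraries of the lines did not overlap for 7 higher and 7 lower members, beside 22.0% and 32.8% of all tested genes.

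**Figure D1:**
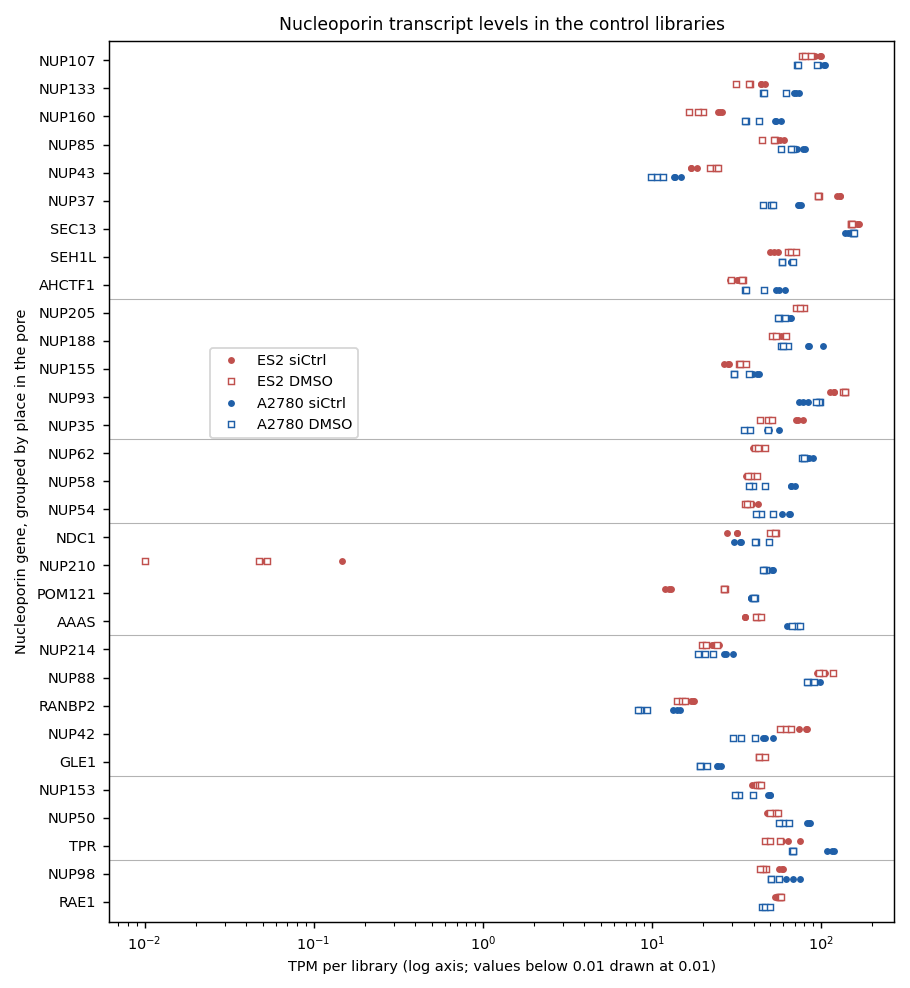
TPM of each of the 31 nucleoporin genes in every control library (log axis), with ES2 (red) drawn above A2780 (blue) for each gene, siCtrl as filled circles, DMSO as open squares, and grey lines between the places in the pore. Most members lie between 10 and 170 TPM in both lines and NUP210 lies below 0.15 TPM in ES2.

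SEC13, which the outer ring shares with the COPII coat of secretory vesicles, was the highest member in every group, at 130 to 166 TPM in ES2 and 135 to 156 TPM in A2780 as group means. RANBP2, the large SUMO ligase of the cytoplasmic filaments, and NUP43 were the lowest members of A2780 groups, at 8.76 to 14.4 TPM. Within a group the SD was a median of 5.44% of the mean over 244 member and group pairs. Summed over the list, the nucleoporins came to 1609 ± 26.2 TPM in ES2 siVRK1 against 1719 ± 11.7 TPM in ES2 siCtrl, and 1427 ± 49.2 TPM in ES2 luteolin against 1650 ± 44.4 TPM in ES2 DMSO. A2780 gave 1614 ± 105.1 TPM with siVRK1 against 1973 ± 43.5 TPM with siCtrl, and 1486 ± 47.4 TPM with luteolin against 1644 ± 81.5 TPM with DMSO (SD, n = 3 each). In bulk samples fewer cells of a kind and less RNA per cell cannot be told apart.

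With siVRK1 most nucleoporin transcripts were lower in A2780, and in ES2 they moved in both directions. In A2780, 21 of 31 members fell and 1, POM121, rose, with 9 not passing the test, where 27.0% of all tested genes were called lower and 13.8% higher. The median member was at -0.33 (log2 fold change) and the median of all tested genes at -0.077. With median-of-ratios scaling 19 fell and 1 rose, beside backgrounds of 20.4% and 20.7%; the calls of NUP188 and NUP98 were lost. In ES2, 10 of 30 tested members fell and 7 rose, beside 28.0% and 26.8% of all tested genes, and the median member was at -0.11 beside -0.0022. Scaling left these 10 and 7 calls in number, beside 28.4% and 27.4%. Without overlap between siVRK1 and siCtrl were 20 lower members and 1 higher of 31 in A2780, beside 34.5% and 18.8% of all tested genes, and 15 lower and 8 higher of 30 in ES2, beside 32.2% and 30.9%. The members called lower in both lines were NUP133, NUP160, NUP85, AHCTF1, NUP35, NUP58, TPR and RAE1, which are 8 of the 10 in ES2 and 8 of the 21 in A2780; POM121 was called higher in both. The share of all tested genes called alike in both lines was not counted, so this overlap has no background beside it. The summed TPM of the 6 epithelial markers was also lower, at 636 to 675 TPM in ES2 siVRK1 against 962 to 986 TPM in ES2 siCtrl. In A2780 this sum was 6.54 to 7.91 TPM with siVRK1 against 10.3 to 12.1 TPM with siCtrl. Taken singly, 2 of 5 tested epithelial markers were called lower in ES2 and 1 of 3 in A2780. The fibroblast markers summed to 51.9 to 64.3 TPM in ES2 siVRK1 against 81.7 to 97.7 TPM in ES2 siCtrl, with 1 of 2 tested called lower. The mesenchymal marker VIM fell as well, to 3021 to 3122 TPM in ES2 siVRK1 against 3810 to 3891 TPM in ES2 siCtrl and to 2487 to 2585 TPM in A2780 siVRK1 against 3144 to 3245 TPM in A2780 siCtrl. Their part in the result was not tested.

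NUP35 fell most, in both lines. NUP35 (ENSG00000163002, chr2:183117513-183161680, plus strand) encodes the inner ring nucleoporin also called NUP53, which contacts the membrane and NUP155. It had 20.5, 16.3 and 19.1 TPM in ES2 siVRK1 against 71.3, 78.8 and 73.6 TPM in ES2 siCtrl. A2780 had 24.5, 24.4 and 19.3 TPM with siVRK1 against 56.5, 49.1 and 47.9 TPM with siCtrl. In both lines every knockdown library lay below every siCtrl library, by log2 fold changes of -1.95 ± 0.088 (SE, adjusted p = 3.37e-09) in ES2 and -1.14 ± 0.14 (adjusted p = 4.36e-05) in A2780. The other inner ring members moved less. NUP155, a scaffold protein, rose in ES2 (0.29 ± 0.054) and fell in A2780 (-0.34 ± 0.088), the member with opposite calls in the 2 lines. It had 35.2, 32.7 and 34.8 TPM in ES2 siVRK1 against 26.7, 28.2 and 28.5 TPM in ES2 siCtrl, and 35.4, 31.3 and 31.5 TPM in A2780 siVRK1 against 41.8, 39.97 and 43.1 TPM in A2780 siCtrl. The NUP155 means in DMSO were 34.1 TPM in ES2 and 33.0 TPM in A2780. The siCtrl mean was thus below DMSO in ES2 and above it in A2780, and the siVRK1 libraries lay near DMSO in both. NUP205 (-0.39 ± 0.060) and NUP188 (-0.33 ± 0.12), the large paralogous scaffold rods, fell in A2780, NUP188 with an adjusted p of 0.0495 at the edge of the threshold, and gave -0.039 and -0.13 in ES2, where neither passed. For NUP188 the lowest A2780 group was DMSO (60.7 TPM) and the highest was siCtrl (90.9 TPM). NUP93, which anchors the channel complex, passed in neither line, with 95% intervals of -0.15 to 0.084 in ES2 and -0.24 to 0.15 in A2780.

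The 2 kinds of control differed from each other as well. Set against DMSO, siCtrl had 10 members higher and 7 lower in ES2 (34.7% and 21.5% of all tested genes; 9 and 11 with scaling, beside 28.5% and 27.3%) and 20 higher and 3 lower in A2780 (47.2% and 10.9%; 10 and 7 with scaling, beside 23.4% and 25.9%). The median gene lay at 0.24 in A2780 in that comparison, chosen after the data were seen. In A2780 retained-intron transcripts took 4.69 ± 0.120% of the TPM in siCtrl against 3.55 ± 0.117% in DMSO (SD, n = 3), genes at 1 TPM or more numbered 12246 to 12346 in siCtrl against 11862 to 11963 in DMSO, and the epithelial markers summed to 10.3 to 12.1 TPM in siCtrl against 5.43 to 6.26 TPM in DMSO. The part of these in the result was not tested. For NUP35, ES2 siCtrl was above ES2 DMSO (means 74.6 ± 3.85 and 47.9 ± 4.07 TPM; log2 fold change 0.63 ± 0.088, adjusted p = 6.13e-05), and the same comparison gave 0.33 ± 0.14 in A2780 (adjusted p = 0.0568), or 0.086 relative to the median gene there. The knockdown groups were below DMSO as well, at 18.6 ± 2.13 TPM against 47.9 ± 4.07 TPM in ES2 and 22.7 ± 2.97 TPM against 40.8 ± 7.22 TPM in A2780. The siCtrl group is shared by this comparison and the knockdown comparison. Both main NUP35 transcripts went the same way. The coding transcript ENST00000295119 averaged 9.49 ± 0.226 TPM in ES2 siVRK1 against 38.8 ± 0.855 TPM in ES2 siCtrl, and 11.6 ± 0.635 TPM in A2780 siVRK1 against 27.5 ± 0.913 TPM in A2780 siCtrl (SD, n = 3). ENST00000497330, a transcript of 544 bases with no annotated coding sequence, averaged 7.02 ± 0.741 TPM in ES2 siVRK1 against 33.7 ± 3.12 TPM in ES2 siCtrl, and 9.22 ± 2.75 TPM in A2780 siVRK1 against 22.3 ± 4.78 TPM in A2780 siCtrl.

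The coding transcript of NUP35 carries the letters GATAATA in its 3′ UTR, 16 bases before its end, and ENST00000497330 does not carry them. This word of 7 bases came from an earlier search of these same data for words in 3′ UTRs, so its presence in genes that fell is a description. It was found in the 3′ UTR of 5 of the 31 members (NUP160, NUP43, NUP35, RANBP2 and NUP153), in 7 of 52 genes of the transport lists below, and in 12.4% of tested genes with an annotated 3′ UTR in ES2 and 11.8% in A2780. For NUP160 it was in transcripts holding 2.03% of the gene's TPM in ES2 siCtrl. The windows of the other 4 members are printed to compare the surrounding letters (GRCh38, GENCODE release 29, word in capitals), at chr2:183161647-183161676 (plus strand), chr6:149725788-149725817 (minus), chr2:108785713-108785742 (plus) and chr6:17615117-17615146 (minus).
NUP35: taaagtttcttGATAATAaacattgtcaat
NUP43: ttgtctgcaggGATAATAatgaactaatgt
RANBP2: tctaaacccacGATAATAtgtatctttcct
NUP153: tggtgactttgGATAATAaggaaaagttta

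These 4 did not move as 1 group with siVRK1. NUP35 fell in both lines, NUP43 rose in ES2, and RANBP2 and NUP153 fell in A2780 and passed in neither direction in ES2. The sequence of the siRNA is not given in the sources used here, and its relation to the word was not tested.

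POM121 rose in both lines, furthest in ES2. POM121 (ENSG00000196313, chr7:72879365-72951440, plus strand) encodes a transmembrane FG nucleoporin needed for pore assembly in the intact envelope. It had 30.3, 29.6 and 29.9 TPM in ES2 siVRK1 against 12.03, 12.7 and 12.99 TPM in ES2 siCtrl, and 54.01, 53.8 and 49.95 TPM in A2780 siVRK1 against 38.9, 38.4 and 38.6 TPM in A2780 siCtrl. The groups did not overlap, with log2 fold changes of 1.19 ± 0.055 (SE, adjusted p = 4.36e-09) and 0.43 ± 0.052 (adjusted p = 3.73e-05). In ES2 it was the siCtrl group that stood apart from the other 3, whose means were 29.9 TPM with siVRK1, 24.1 TPM with luteolin and 26.9 TPM with DMSO; siCtrl against DMSO gave -1.04 ± 0.055 (adjusted p = 1.8e-08). In A2780 the siCtrl and DMSO means were 38.7 and 40.3 TPM. The neighbouring copy POM121C, 98.1% identical over the aligned coding bases, had 28.99 ± 1.43 TPM in ES2 siVRK1 against 12.6 ± 2.66 TPM in ES2 siCtrl, and 52.7 ± 5.10 TPM in A2780 siVRK1 against 39.7 ± 1.36 TPM in A2780 siCtrl. How reads were split between the copies is uncertain; summed over both, the log2 fold changes were 1.20 in ES2 and 0.42 in A2780.

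**Figure D2:**
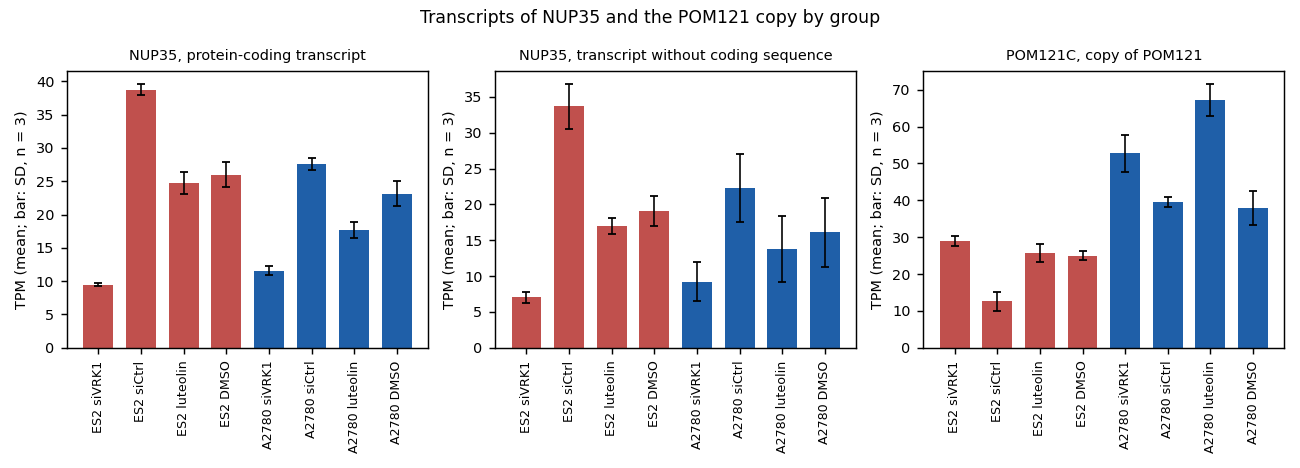
Mean TPM (bars; error bars SD, n = 3) of the NUP35 coding transcript, of the NUP35 transcript without coding sequence, and of POM121C, in the 8 groups. Both NUP35 transcripts are lowest in the siVRK1 group of each line, and POM121C is lowest in ES2 siCtrl.

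In the central channel NUP58 fell in both lines. NUP58 (ENSG00000139496, chr13:25301524-25349800, plus strand) is an FG nucleoporin of the NUP62 complex. ES2 had 24.9, 26.5 and 23.6 TPM with siVRK1 against 37.5, 36.5 and 36.3 TPM with siCtrl, and A2780 had 43.9, 45.2 and 35.1 TPM with siVRK1 against 66.97, 66.8 and 70.4 TPM with siCtrl. Every knockdown library was below every siCtrl library, with log2 fold changes of -0.54 ± 0.080 in ES2 and -0.71 ± 0.11 in A2780 (adjusted p = 0.0001 and 0.000272). In A2780 the siCtrl mean of 68.1 TPM was also above DMSO (41.4 TPM; 0.71 ± 0.11, or 0.46 relative to the median gene), and the siVRK1 mean was 41.4 TPM. Its partners NUP62 and NUP54 fell in A2780 (-0.27 ± 0.061 and -0.41 ± 0.090) and did not pass in ES2, where their 95% intervals were -0.16 to 0.085 and -0.12 to 0.14. All 3 channel genes were thus called lower in A2780 and 1 of 3 in ES2, beside 27.0% and 28.0% of all tested genes.

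The outer ring, a Y-shaped scaffold complex, had 5 of 9 members lower and 3 higher in ES2, beside 28.0% and 26.8% of all tested genes, and 5 lower and none higher in A2780, beside 27.0% and 13.8%. Of the 5 lower in each line 4 were shared, an overlap with no background counted. NUP160, at the arm of the Y, had 17.96, 18.1 and 17.7 TPM in ES2 siVRK1 against 26.2, 25.3 and 24.5 TPM in ES2 siCtrl, and 42.5, 39.6 and 39.00 TPM in A2780 siVRK1 against 57.9, 53.5 and 54.2 TPM in A2780 siCtrl. Its groups did not overlap in either line (-0.48 ± 0.072 in ES2 and -0.44 ± 0.073 in A2780). The ES2 means of NUP160 were 17.9 TPM with siVRK1 and 18.5 TPM with DMSO. In A2780 its main coding transcript, ENST00000378460, averaged 35.6 TPM with siVRK1, 50.3 TPM with siCtrl and 34.4 TPM with DMSO. In both lines it was thus siCtrl that stood apart. NUP133, NUP85 and AHCTF1 also fell in both lines, by 0.19 to 0.32 in ES2 and by 0.31 to 0.41 in A2780 on the log2 scale. The highest group was siCtrl for NUP133 and NUP85 in both lines and for AHCTF1 in A2780. In A2780 AHCTF1 was lowest with DMSO (39.4 TPM), and in ES2 with siVRK1 (27.2 TPM). With siVRK1, siCtrl and DMSO the main coding transcript of NUP133 averaged 31.3, 40.8 and 33.8 TPM in A2780. In ES2 it averaged 26.0, 27.5 and 22.3 TPM. That of NUP85 averaged 35.3, 53.3 and 46.9 TPM in A2780 and 29.3, 41.0 and 32.4 TPM in ES2. NUP43, a propeller protein of the ring, had 23.6, 24.5 and 26.6 TPM in ES2 siVRK1 against 18.4, 17.1 and 17.1 TPM in ES2 siCtrl, a rise of 0.48 ± 0.070 with no overlap, and in A2780 the fold change was 0.026 ± 0.14, with overlap. ES2 siCtrl was below ES2 DMSO for NUP43 too (-0.40 ± 0.070). SEH1L and NUP107 rose in ES2 (0.39 and 0.21) and passed in neither direction in A2780. For SEH1L as well, and for NUP155, ES2 siCtrl was below ES2 DMSO (-0.34 and -0.28). NUP37 fell in A2780, with 52.1, 47.2 and 47.4 TPM in siVRK1 against 73.5, 75.9 and 74.6 TPM in siCtrl (-0.60 ± 0.065), and gave -0.086 in ES2, which did not pass. Here too A2780 siCtrl stood above DMSO. The main coding transcript of NUP37, ENST00000251074, averaged 26.6 TPM in A2780 siVRK1, 39.4 TPM in A2780 siCtrl and 27.8 TPM in A2780 DMSO. SEC13 fell in ES2, with 136, 137 and 142 TPM in siVRK1 against 168, 167 and 164 TPM in siCtrl (-0.26 ± 0.031), and overlapped in A2780 (-0.087).

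**Figure D3:**
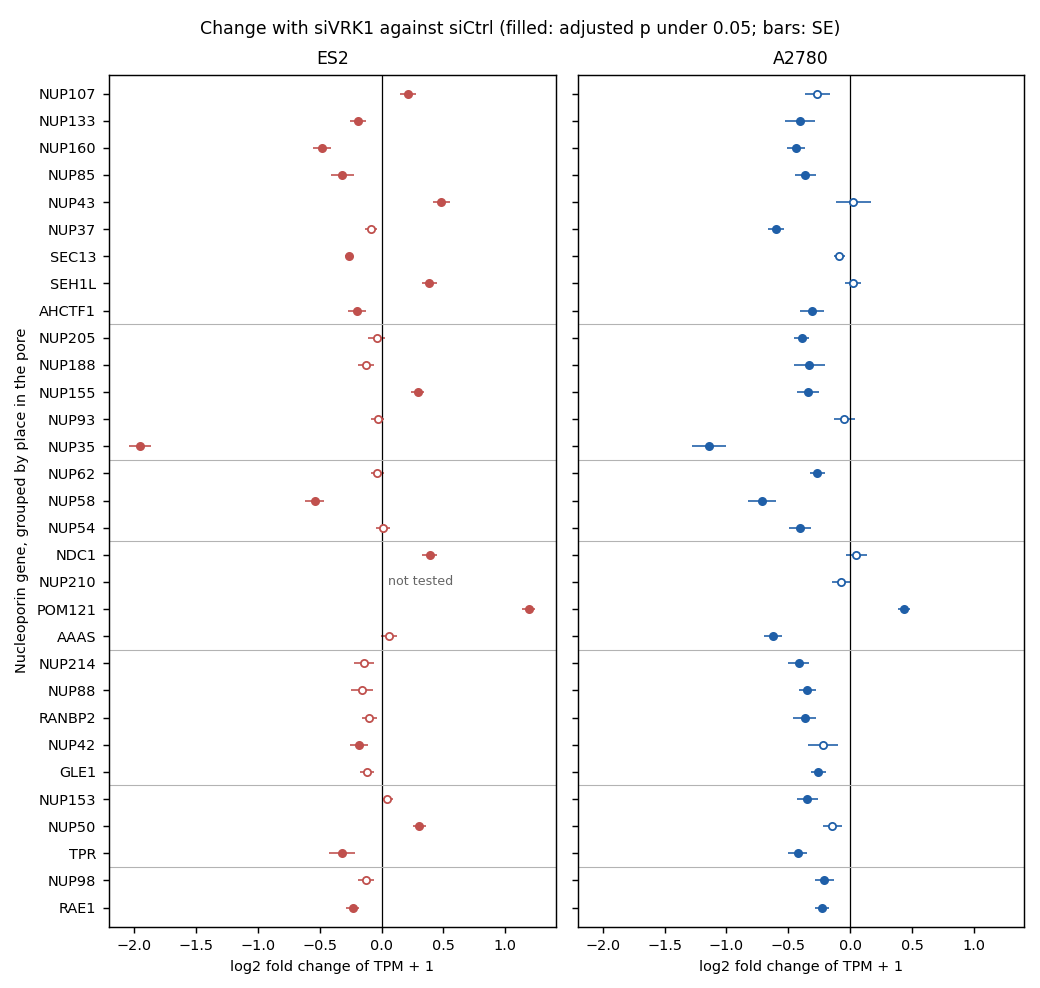
Log2 fold change of TPM + 1 with siVRK1 against siCtrl for each nucleoporin (points; bars SE; filled where the adjusted p over all genes was under 0.05), ES2 left and A2780 right, on the same axis. NUP35 lies furthest left and POM121 furthest right in both lines; NUP210 was not tested in ES2.

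At the membrane, AAAS fell in A2780. AAAS (aladin) is the nucleoporin mutated in triple A syndrome and is held at the pore by NDC1. A2780 had 44.8, 45.7 and 38.97 TPM with siVRK1 against 69.4, 63.2 and 68.3 TPM with siCtrl (-0.62 ± 0.073, adjusted p = 3.1e-05), without overlap. ES2 had 36.3, 39.2 and 36.3 TPM with siVRK1 against 35.7, 35.6 and 35.6 TPM with siCtrl, a difference of 0.062 ± 0.067 that did not pass (adjusted p = 0.462). NDC1, the transmembrane anchor itself, rose in ES2, where siVRK1 libraries had 40.3, 39.1 and 41.4 TPM against 31.97, 27.8 and 31.9 TPM with siCtrl (0.39 ± 0.058), and overlapped in A2780 (0.049). As for POM121, the ES2 siCtrl mean of NDC1 (30.6 TPM) was below that of DMSO (52.8 TPM; -0.77 ± 0.058). NUP210 did not pass in A2780 (-0.071 ± 0.073).

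On the cytoplasmic side 4 of 5 members fell in A2780, NUP214 (-0.42), its partner NUP88 (-0.35), RANBP2 (-0.37) and GLE1 (-0.26), and 1 of 5 in ES2, NUP42 (-0.18, but 0.017 with coding transcripts only). Of all tested genes 27.0% were called lower in A2780 and 28.0% in ES2. In A2780 DMSO was the lowest and siCtrl the highest group for NUP214 (20.8 and 28.1 TPM), RANBP2 (8.76 and 14.1 TPM) and GLE1 (20.0 and 24.8 TPM). The same held for NUP42 in ES2 (62.4 and 79.4 TPM). For NUP88 the A2780 means were 72.3 TPM with siVRK1, 92.3 TPM with siCtrl and 86.2 TPM with DMSO. RANBP2 has near copies, of which RGPD5 is 94.8% identical over the aligned coding bases and stood at 9.999 ± 1.90 TPM in A2780 siVRK1 against 10.8 ± 2.84 TPM in A2780 siCtrl, so its level is uncertain. In the nuclear basket TPR, the coiled-coil protein of the basket filaments, fell in both lines (-0.32 ± 0.10 in ES2 and -0.43 ± 0.075 in A2780). The A2780 means of TPR were 85.7 TPM with siVRK1, 115.0 TPM with siCtrl and 68.1 TPM with DMSO. In ES2 its main coding transcript, ENST00000367478, averaged 36.8, 43.1 and 33.0 TPM in these groups. The siCtrl group thus stood above DMSO for TPR, and siVRK1 did not lie below DMSO in these values. NUP50 rose in ES2 (0.30 ± 0.053) and not in A2780, and NUP153 fell in A2780 (-0.35 ± 0.083) and not in ES2. The A2780 means of NUP153 were 39.0 TPM with siVRK1, 49.8 TPM with siCtrl and 34.6 TPM with DMSO. RAE1, an mRNA export factor that binds NUP98, fell in both (-0.23 and -0.23), and NUP98 in A2780 (-0.21). The A2780 means of NUP98 were 59.4 TPM with siVRK1, 68.9 TPM with siCtrl and 52.9 TPM with DMSO.

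FG dipeptides, counted in the translated longest coding sequence of GENCODE release 29, numbered 44 in NUP214, 41 in NUP98, 29 in NUP153, 24 in POM121, 22 in RANBP2, 14 in NUP58 and 12 in NUP42, and fewer than 10 in each of the other members. Of these 7, 2 fell and 1 rose in ES2 siVRK1 (28.0% and 26.8% of all tested genes), and 5 fell and 1 rose in A2780 siVRK1 (27.0% and 13.8%), or 4 and 1 with the scaling (20.4% and 20.7%). With luteolin 3 fell and 1 rose in ES2 (25.8% and 22.6%). In A2780 luteolin the values as deposited gave 3 higher and none lower, beside 45.6% and 19.9%, and the scaling gave 1 higher (NUP42) and 2 lower (NUP153 and NUP98), beside 32.6% and 32.4%, where POM121 and RANBP2 were no longer called.

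Most nucleoporins called with luteolin were lower, in both lines. In ES2, 18 of 30 tested members fell and 1 rose, where 25.8% of all tested genes were called lower and 22.6% higher, and the median member was at -0.19 beside -0.0033 for all genes. In A2780 the values as deposited gave 12 of 31 members lower and 5 higher, beside 19.9% and 45.6% of all tested genes. The median gene in A2780 was shifted by 0.22 (log2), which median-of-ratios scaling reduced to 0.022, so A2780 values are given relative to the median gene. On that basis the median member was at -0.35, and with the scaling 21 members fell and 1 rose, beside backgrounds of 32.4% and 32.6%. Members called lower in both lines were 9 (NUP37, SEC13, SEH1L, NUP155, NUP93, NUP62, NDC1, NUP88 and RAE1), which is 9 of the 18 in ES2 and 9 of the 12 in A2780, and 15 with the scaling (of 19 in ES2, beside 26.1% of all tested genes lower and 23.8% higher, and 21 in A2780). These overlaps too have no background, since genes called in both lines were counted among the members only. For AHCTF1, POM121 and TPR the deposited values were called lower in ES2 and higher in A2780, and none of these 3 was called higher in A2780 with the scaling. The luteolin and DMSO libraries did not overlap for 18 lower members and no higher one of 30 in ES2, beside 28.6% and 25.8% of all tested genes, and for 13 lower and 5 higher of 31 in A2780, beside 21.1% and 46.2%.

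Other features of the libraries moved with luteolin. Mitochondrial mRNAs took 7.78 ± 0.791% of the TPM in ES2 luteolin against 4.57 ± 0.564% in ES2 DMSO, and 10.5 ± 1.40% in A2780 luteolin against 7.10 ± 1.03% in A2780 DMSO (SD, n = 3). With these mRNAs removed, 13 members fell and 1 rose in ES2, beside 22.0% and 26.7% of all tested genes, and 10 fell and 6 rose in A2780, beside 17.9% and 50.5%. Retained-intron transcripts took 4.73 ± 0.164% in ES2 luteolin against 4.51 ± 0.0336% in ES2 DMSO, and 5.46 ± 0.166% in A2780 luteolin against 3.55 ± 0.117% in A2780 DMSO. Genes at 1 TPM or more numbered 12058 to 12190 in ES2 luteolin libraries against 11865 to 11948 in ES2 DMSO, and 12761 to 12862 in A2780 luteolin against 11862 to 11963 in A2780 DMSO. In ES2 the 3 endothelial markers summed to 9.59 to 10.7 TPM with luteolin against 36.0 to 39.8 TPM with DMSO, nearly all of it CDH5, with VWF at or near 0. The 3 fibroblast markers summed to 15.6 to 20.8 TPM in ES2 luteolin against 111.2 to 132.6 TPM in ES2 DMSO, mostly COL1A1, with DCN under 1 TPM on average. The epithelial markers summed to 705 to 775 TPM in ES2 luteolin against 952 to 992 TPM in ES2 DMSO. The part of these markers, of retained introns and of the number of genes detected in the result was not tested. VRK1 itself was at 61.5 ± 7.18 TPM in ES2 luteolin against 60.3 ± 3.20 TPM in ES2 DMSO, and at 39.9 ± 3.92 TPM in A2780 luteolin against 54.2 ± 5.04 TPM in A2780 DMSO.

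**Figure D4:**
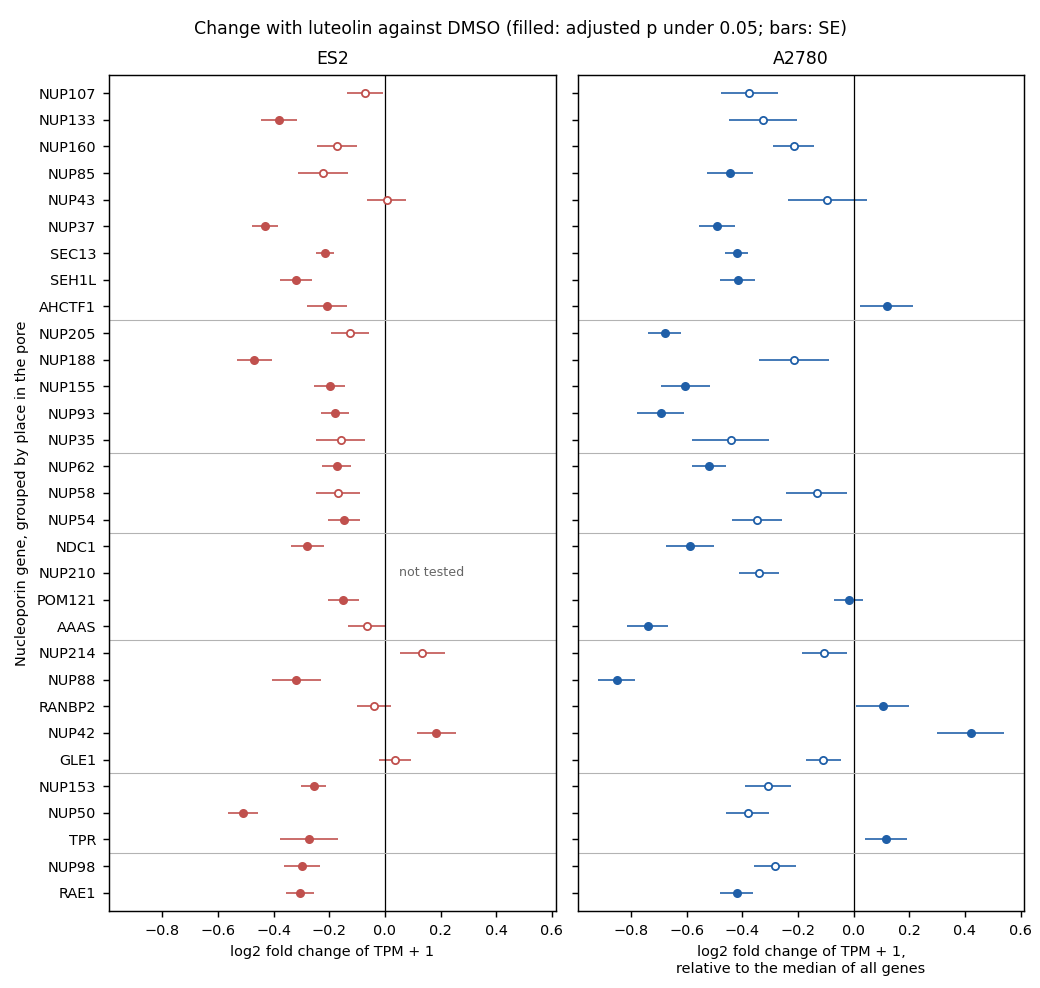
Log2 fold change of TPM + 1 with luteolin against DMSO for each nucleoporin (points; bars SE; filled where the adjusted p as deposited was under 0.05), ES2 left and A2780 right relative to the median of all genes, on the same axis. Most points lie left of 0 in both lines and NUP42 lies right of 0 in both.

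The nuclear basket gene NUP50, a cofactor of importin-mediated import, fell most in ES2. It had 35.3, 36.3 and 39.4 TPM with luteolin against 53.5, 55.6 and 50.3 TPM with DMSO, with no overlap (-0.51 ± 0.053, adjusted p = 7.16e-06). In A2780 it had 55.4, 56.5 and 49.2 TPM with luteolin against 59.8, 56.3 and 64.8 TPM with DMSO, with overlap, and -0.38 ± 0.078 relative to the median gene. All 3 basket genes fell in ES2. TPR had 46.2, 38.5 and 42.7 TPM in ES2 luteolin against 47.04, 50.2 and 57.5 TPM in ES2 DMSO (-0.27 ± 0.10, adjusted p = 0.0462). A2780 had 89.1, 89.6 and 80.1 TPM with luteolin against 67.9, 68.3 and 68.3 TPM with DMSO, which was 0.12 ± 0.075 above the median gene and not called with the scaling. NUP153 gave -0.26 ± 0.045 in ES2 and -0.31 ± 0.083 relative to the median gene in A2780.

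In the scaffold, NUP188 and NUP37 fell in ES2. NUP188 had 40.3, 41.4 and 38.2 TPM with luteolin against 51.2, 62.3 and 54.1 TPM with DMSO (-0.47 ± 0.063), and in A2780 51.4, 72.3 and 60.4 TPM with luteolin against 63.8, 58.6 and 59.7 TPM with DMSO, with overlap (-0.21 ± 0.12 relative to the median gene, not called). NUP37 had 73.02, 66.4 and 74.4 TPM in ES2 luteolin against 95.7, 97.04 and 96.2 TPM in ES2 DMSO (-0.43 ± 0.046), and 43.03, 40.9 and 38.3 TPM in A2780 luteolin against 45.6, 50.4 and 52.5 TPM in A2780 DMSO (-0.49 ± 0.065), a fall without overlap in both lines. NUP93, with 78.04, 61.8 and 68.8 TPM in A2780 luteolin against 99.6, 97.6 and 93.2 TPM in A2780 DMSO, stood at -0.69 ± 0.084 relative to the median gene, a fall. For NUP93 ES2 luteolin had 125, 118 and 120.4 TPM against 138, 135 and 139 TPM in ES2 DMSO (-0.18 ± 0.050). Retained-intron transcripts held 44.3% of NUP93 TPM in A2780 luteolin, 50.8% in A2780 DMSO, 51.2% in ES2 luteolin and 50.8% in ES2 DMSO. NUP205 fell in A2780 (-0.68 ± 0.060), with 42.6, 42.9 and 40.1 TPM with luteolin against 61.3, 56.7 and 56.04 TPM with DMSO, and overlapped in ES2 (-0.13). Retained-intron transcripts held 5.40 ± 0.660% of its TPM in A2780 luteolin against 22.4 ± 10.1% in A2780 DMSO (SD). The coding transcript ENST00000285968 moved less, averaging 37.3 TPM with luteolin and 41.6 TPM with DMSO in A2780. NUP35, the member that moved most with the knockdown, passed in neither line with luteolin as deposited (-0.16 in ES2, adjusted p = 0.156, and -0.44 relative to the median gene in A2780), and was called lower in A2780 with the scaling (adjusted p = 0.00479).

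In A2780 the cytoplasmic face held the largest fall and the largest rise. NUP88 (ENSG00000108559, chr17:5360963-5420160, minus strand), which ties NUP214 to the pore and binds the exportin XPO1 with it, had 55.3, 56.7 and 53.4 TPM with luteolin against 91.6, 84.00 and 83.1 TPM with DMSO. The groups stand well apart (-0.85 ± 0.067 relative to the median gene, -0.64 as deposited, adjusted p = 3.54e-06). In ES2 it had 80.8, 91.6 and 81.2 TPM with luteolin against 103, 97.2 and 117 TPM with DMSO (-0.32 ± 0.087), also without overlap. Most of the NUP88 TPM came from retained-intron transcripts. Their share was 73.1% in A2780 luteolin, 67.0% in A2780 DMSO, 74.1% in ES2 luteolin and 75.4% in ES2 DMSO. NUP42 (ENSG00000136243, chr7:23181827-23201011, plus strand) went the other way, with 52.3, 54.1 and 56.5 TPM in A2780 luteolin against 33.6, 30.2 and 40.7 TPM in A2780 DMSO (0.42 ± 0.12 relative to the median gene, adjusted p as deposited = 0.000486). ES2 had 75.3, 65.7 and 71.8 TPM with luteolin against 62.6, 57.5 and 67.02 TPM with DMSO. These overlap, and the call (0.18 ± 0.070, adjusted p = 0.0468) was lost without ES2 luteolin library 1, without ES2 luteolin library 3, without ES2 DMSO library 1 and without ES2 DMSO library 2 (adjusted p = 0.165, 0.105, 0.0852 and 0.182). NUP214, GLE1 and RANBP2 did not pass in ES2.

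AAAS at the membrane fell in A2780, with 51.5, 51.7 and 46.1 TPM with luteolin against 72.7, 75.3 and 67.7 TPM with DMSO (-0.74 ± 0.073 relative to the median gene), and had 36.7, 39.99 and 45.3 TPM in ES2 luteolin against 41.7, 41.5 and 44.2 TPM in ES2 DMSO, where the groups overlapped (-0.065 ± 0.067). NDC1 fell in both lines (-0.28 ± 0.058 in ES2 and -0.59 ± 0.086 relative to the median gene in A2780). POM121 fell in ES2 (-0.15 ± 0.055, adjusted p = 0.0414), a call that was lost (adjusted p = 0.548) when it was summed with POM121C. In A2780 POM121 was at -0.018 ± 0.052 relative to the median gene, while POM121C had 67.2 ± 4.39 TPM with luteolin against 37.8 ± 4.60 TPM with DMSO. AHCTF1, which recruits the outer ring to chromatin, had 28.96, 26.9 and 28.9 TPM in ES2 luteolin against 29.5, 34.8 and 34.2 TPM in ES2 DMSO (-0.21 ± 0.072), and 46.2, 52.6 and 50.04 TPM in A2780 luteolin against 35.8, 36.2 and 46.1 TPM in A2780 DMSO (0.12 ± 0.095 relative to the median gene, not called with the scaling).

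**Figure D5:**
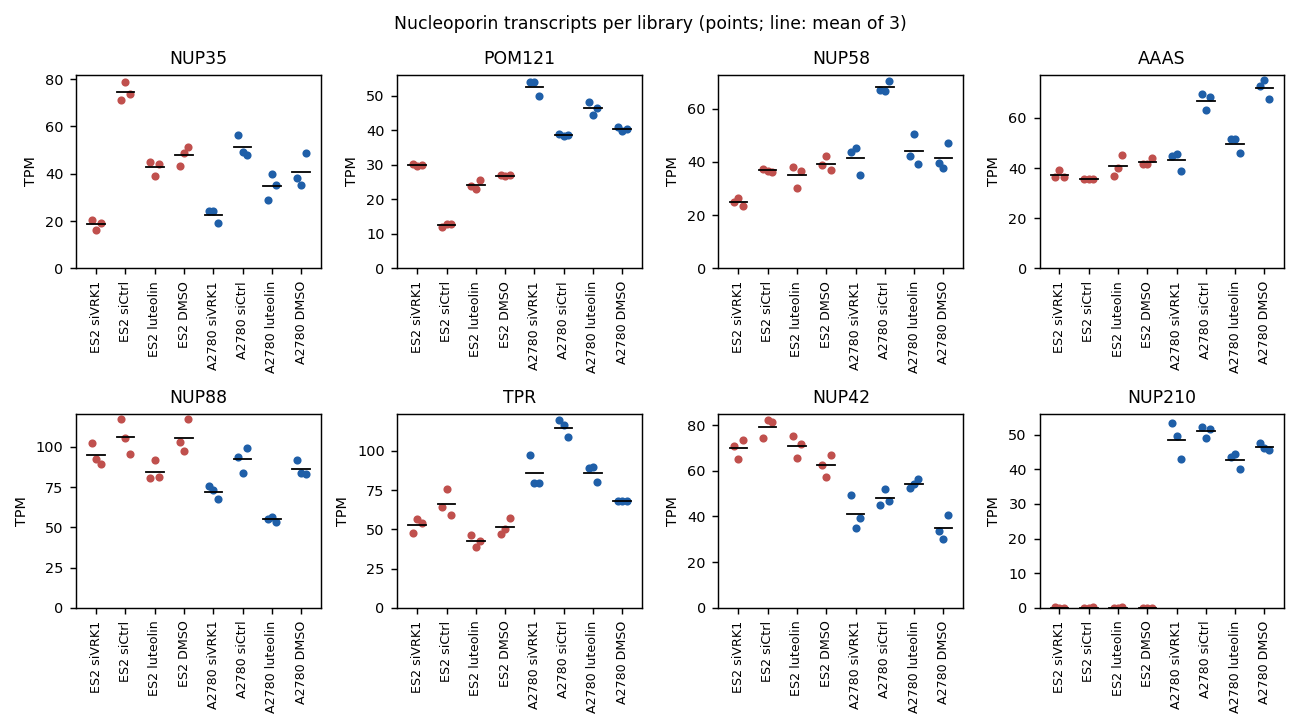
TPM per library (points; line, mean of 3) in the 8 groups for 8 nucleoporins, ES2 groups left of A2780 groups and each treatment left of its control. NUP35 is lowest with siVRK1 in both lines, POM121 is lowest in ES2 siCtrl, NUP88 is lowest with luteolin in both lines, and NUP210 is near 0 in ES2.

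The response to siVRK1 differed between the lines for 15 of 31 members, tested as the ES2 change minus the A2780 change. The difference was higher for 13 and lower for 2, beside 20.7% and 13.2% of all tested genes; with the scaling it was 11 and 2, beside 15.7% and 19.3%. The largest were POM121 (0.75 ± 0.066, adjusted p = 3.08e-08), AAAS (0.69 ± 0.10, adjusted p = 2.09e-05) and NUP155 (0.63 ± 0.10, adjusted p = 8.14e-05) on the high side. NUP35 (-0.81 ± 0.18, adjusted p = 0.0014) and SEC13 (-0.18 ± 0.046, adjusted p = 0.00515) were the 2 on the low side. For AAAS the A2780 fall had no ES2 counterpart, while NUP155 was called higher in ES2 and lower in A2780. For NUP35 the ES2 fall was the deeper. None of the 5 cytoplasmic filament genes differed between the lines by this test. The siCtrl groups of both lines enter each of these differences.

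For luteolin, with the values as deposited, the ES2 change minus the A2780 change was higher for 4 and lower for 7 members, beside 14.7% and 35.8% of all tested genes, whose median was -0.20. With median-of-ratios scaling, which brings that median to -0.034, 10 were higher and 3 lower, beside 24.2% and 25.4%. Relative to the median gene AAAS (0.65 ± 0.10), NUP205 (0.53 ± 0.091) and NUP88 (0.51 ± 0.12) were the largest on the high side, where the A2780 fall was the deeper; NUP205 turned to -0.040 (as fitted) with coding transcripts only. TPR (-0.41 ± 0.14), AHCTF1 (-0.35 ± 0.12) and NUP188 (-0.28 ± 0.15) were the largest on the low side, of which NUP188 was not called with the scaling (adjusted p = 0.112). NUP88 lost its call when any 1 of 5 libraries was left out, with adjusted p of 0.0562 to 0.0848: A2780 luteolin library 3, A2780 DMSO library 1, ES2 luteolin library 2, or ES2 DMSO library 1 or 2. Without A2780 DMSO library 3, 12 members were called lower in place of 7.

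Transport receptors, which carry cargo through the pore, and the Ran cycle, which gives transport its direction, were followed in a list of 32 genes, 31 of them tested. With siVRK1 10 fell and 11 rose in ES2, close to the 28.0% and 26.8% of all tested genes, and 16 fell and 2 rose in A2780, beside 27.0% and 13.8% (14 and 4 with the scaling, beside 20.4% and 20.7%). With luteolin 19 fell and 3 rose in ES2, beside 25.8% and 22.6%, and 13 fell and 6 rose in A2780, beside 19.9% and 45.6% (20 and 4 with the scaling, beside 32.4% and 32.6%). KPNA5, an importin alpha, fell with siVRK1 in both lines (-1.81 ± 0.10 in ES2 and -1.08 ± 0.16 in A2780), as did CSE1L, the exporter that recycles importin alpha (-0.69 ± 0.039 and -0.77 ± 0.060). KPNA5 was also higher in siCtrl than in DMSO (1.22 in ES2 and 0.94 relative to the median gene in A2780). KPNA6, another importin alpha, rose in both (0.54 in ES2 and 0.36 in A2780), IPO11 rose in ES2 (0.82), and SNUPN, the snRNP import adaptor, rose in ES2 (0.28) and fell in A2780 (-0.59). For IPO11 and SNUPN, ES2 siCtrl was itself below ES2 DMSO (-0.70 ± 0.14 and -0.41 ± 0.053). With luteolin the falls were led in ES2 by KPNA2 (-0.71 ± 0.035), KPNB1, which is importin beta (-0.70 ± 0.047), and RCC1, the Ran exchange factor on chromatin (-0.70 ± 0.052). In A2780 they were led by RANBP1 (-1.05), RANGAP1 (-0.85) and RCC1 (-0.78) relative to the median gene, where RANGAP1 is the GTPase activator docked at RANBP2. IPO13 rose with luteolin in both lines (0.33 ± 0.12 in ES2 and 0.84 ± 0.13 relative to the median gene in A2780).

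All 20 genes of an mRNA export list were tested. With siVRK1 3 fell and 6 rose in ES2, beside 28.0% and 26.8% of all tested genes, and 7 fell and 1 rose in A2780, beside 27.0% and 13.8% (4 and 2 with the scaling, beside 20.4% and 20.7%). With luteolin 8 fell and 2 rose in ES2, beside 25.8% and 22.6% (8 and 4 with the scaling, beside 26.1% and 23.8%), and 12 fell and 3 rose in A2780, beside 19.9% and 45.6% (14 and 2 with the scaling, beside 32.4% and 32.6%). ALYREF, the TREX adaptor that loads mRNA onto the export receptor, rose with siVRK1 (0.66 ± 0.058 in ES2 and 0.35 ± 0.069 in A2780) and fell with luteolin (-0.67 ± 0.058 in ES2 and -1.25 ± 0.069 relative to the median gene in A2780). Its level in siCtrl was itself below DMSO, with -1.12 ± 0.058 in ES2 and -1.12 relative to the median gene in A2780, and these comparisons share the siCtrl and DMSO groups. THOC6, a TREX subunit, rose with siVRK1 in ES2 (0.82 ± 0.094) and fell in A2780 (-0.21 ± 0.065), a fall not called with the scaling. For THOC6 too ES2 siCtrl was below ES2 DMSO (-0.42 ± 0.094). NXF1, the export receptor itself, rose with luteolin in both lines (0.44 ± 0.14 in ES2 and 0.85 ± 0.078 relative to the median gene in A2780).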

How the data were processed

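RNA-seq of 24 libraries was deposited as 1 table of TPM per transcript; per the submitters' processing notes FastQC and kallisto were used, with build hg19 named and no settings stated. Of 193845 lines, 1958 were repeats of a transcript and were used once; 378 transcripts named the 31 members. Groups came from titles, since the digit ending the line or siRNA name counted up in other labels. Lists and members were chosen with earlier results of these data known; the siCtrl against DMSO comparisons, the 3′ UTR word and 3 alternatives were chosen after seeing the data.

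TPM was summed per symbol and tested with limma 3.58.1 (limma-trend, R 4.3.3, Python 3.11.15) on log2(TPM + 1), two-sided, p-values being adjusted (Benjamini-Hochberg) across every gene of at least 1 TPM in at least 3 libraries (threshold 0.05), in 12 libraries per line or, between lines, in all 24. The steps were tested on simulated data. Fold changes understate low genes. Members described per library were, per comparison, the 3 largest called changes in each direction; others were added after their values were seen. Promoters and positions were matched by symbol (GRCh38, GENCODE release 29). Alternatives covered pseudocount, filter, scaling, coding transcripts, fitted libraries, prior variance, a block for the replicate number, mitochondrial mRNAs, sequence copies and each library left out.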

Additional observations from a re-analysis of the deposited data

Results flagged for a closer look

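The response to siVRK1 differed between ES2 and A2780, by the test of the difference itself, for 15 nucleoporins (log2, ES2 change minus A2780 change). Higher in ES2 were POM121 (0.75), AAAS (0.69), NUP155 (0.63), NUP37 (0.52), NUP107 (0.48), NUP43 (0.46), NUP50 (0.45), NUP54 (0.42), NUP153 (0.39), SEH1L (0.36), NUP205 (0.35), NDC1 (0.34) and NUP62 (0.23). Lower in ES2 were NUP35 (-0.81) and SEC13 (-0.18). With median-of-ratios scaling the calls of NUP43 and NUP62 were lost.

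The luteolin response differed for 11, given relative to the median gene. Higher in ES2 were AAAS (0.65), NUP205 (0.53), NUP88 (0.51) and NUP93 (0.49). Lower in ES2 were TPR (-0.41), AHCTF1 (-0.35), NUP188 (-0.28), NUP42 (-0.26), RANBP2 (-0.17), POM121 (-0.15) and NUP50 (-0.15). With median-of-ratios scaling the calls of NUP188, NUP42, RANBP2 and NUP50 were lost.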

How the results depend on the processing

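Over 37 named changes and their alternatives, 783 of 801 values kept direction and side of the threshold, 17 lost the call and 1 reversed: NUP205 in the luteolin difference, at -0.040 with coding transcripts only. These 37 were the largest called changes, up to 3 per direction and comparison. Over all called members and other named genes, ES2 luteolin lost 6 of 20 calls without DMSO library 2. A2780 siVRK1 lost 5 of 24 with quantile normalization. The luteolin difference lost 4 of 11, and 1 reversed, with coding transcripts only. Median-of-ratios scaling gave 1 nucleoporin higher and 21 lower for A2780 luteolin, with POM121 at -0.018, and 10 higher and 3 lower for the luteolin difference; quantile normalization gave 3 and 19, and 8 and 4, with RANBP2 at -0.069 for A2780 luteolin and 0.0085 for the difference. Over all tested genes, A2780 luteolin calls of 5938 higher and 2585 lower became 4213 lower with scaling and 3697 higher and 4256 lower with quantile normalization; luteolin difference calls of 2104 higher and 5125 lower became 3472 higher with scaling and 3621 higher and 3266 lower with quantile normalization. In ES2 luteolin 0 were higher with no filter and with only the groups of the comparison in the fit. With coding transcripts only, NUP42 turned to 0.017 in ES2 siVRK1, POM121C to -0.12 in ES2 luteolin, and NUP88 to -0.18 between the lines. Between the lines SEH1L turned to 0.044 with scaling and 0.12 with DMSO only, where SEC13 was at -0.039 and NUP155 at 0.051. POM121 with its copies was at 0.0045 for A2780 siCtrl against DMSO. POM121C in ES2 luteolin turned to -0.0057 and -0.0089 without luteolin library 1 or 3.

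Leaving out 1 library gave 7 to 10 lower and 6 to 7 higher for ES2 siVRK1, 17 to 23 lower and 1 higher for A2780 siVRK1, 13 to 18 lower and 0 to 1 higher for ES2 luteolin, 10 to 13 lower and 5 to 6 higher for A2780 luteolin, 2 lower and 10 to 14 higher for the siVRK1 difference, 6 to 12 lower and 3 to 4 higher for the luteolin difference, and 15 to 17 lower and 11 to 12 higher between the lines. Library numbers did not pair the samples: deviations of same-numbered libraries correlated at -0.052 to 0.038. With the replicate block the counts lower and higher were 10 and 7 (ES2 siVRK1), 20 and 1 (A2780 siVRK1), 15 and 1 (ES2 luteolin), 12 and 5 (A2780 luteolin), 2 and 13 (siVRK1 difference), 8 and 4 (luteolin difference) and 16 and 11 (between the lines). The cause of these changes was not tested. Depth is unknown.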
